A study of Arabidopsis thaliana with 6 samples.

Results

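The genes described here encode the nuclear subunits of the photosynthetic electron transport chain and ATP synthase of *Arabidopsis thaliana*. They were chosen by locus identifier, from the complexes their products belong to and with earlier results of these data known, and comprise 34 of the 33602 loci in each table. Of these, 12 encode photosystem I subunits, 11 photosystem II subunits, and 11 the Rieske protein, PETM, plastocyanin, leaf ferredoxin, ferredoxin-NADP reductase and 3 subunits of the chloroplast ATP synthase. The samples were whole seedlings of accession Col, wild type or labelled with the genotype bbx4-1, which by its name marks a mutant allele of BBX4, a B-box transcription factor gene also called COL3. All grew for 4 days at 22 °C under constant red light, with 3 biological replicates a genotype, and the deposited tables give 1 combined FPKM value per locus and genotype. FPKM scales fragments by transcript length and by the total mapped, so that levels of different genes can be set side by side.

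In the thylakoid membrane, photosystem II takes electrons from water and passes them through the cytochrome b6f complex and plastocyanin to photosystem I, which reduces ferredoxin. Ferredoxin-NADP reductase then makes NADPH, and ATP synthase uses the proton gradient built up on the way. The core proteins of these complexes that bind the chlorophylls and metals of charge separation are mostly encoded in the plastid genome, whereas the subunits described here are made in the cytosol and imported. Light, through phytochrome and cryptochrome, is known to induce their genes as seedlings turn green.

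The transcript of BBX4 (AT2G24790) went against the label. It stood at 89.0 FPKM in the wild-type column and 1096 FPKM in the column tied to the bbx4-1 samples, which is 12.3-fold higher. That column is therefore called the column labelled bbx4-1, and every direction below refers to it. The labels do not say where the lesion lies in the gene. Green-tissue transcripts were abundant, and all 4 markers, between 4630.5 and 17575 FPKM, had log2 ratios from −0.081 for RCA to −0.018 for RBCS3B. Flower markers were at or near 0, with AP1 listed at 0 in both columns and PI highest at 0.60 FPKM. Of 7 root markers, 6 averaged at least 1 FPKM, with a sum of 228.1 FPKM in wild type against 191.9 in the column labelled bbx4-1. The median log2 ratio of these 6 was 0.057, with 3 above 0 and 3 below, and most of the sum was IRT1. IRT1, an iron transporter of the root epidermis, was the lowest in ratio at 170.2 and 128.7 FPKM (−0.40) and SCR, of the endodermis, the highest at 15.0 and 17.6 FPKM (0.21), while NRT2.1 was at 0.40 and 0.32 FPKM. The 4 seed markers ran from 0.03 to 10.2 FPKM, with CRA1 highest in ratio (0.19) and OLEO1 lowest (−0.19) of those averaging 1 FPKM. The part of these cell types in the values below was not tested. Depth, estimated from genes with 1 fragment, came to about 48.1 M fragments over the wild-type libraries and about 49.8 M over those labelled bbx4-1. No column per replicate was available, so no difference below has a replicate check, no test was run, and the intervals cover counting error only.

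The 34 genes differed little between the columns, and none reached 1.2-fold. Of the 18931 loci that averaged at least 1 FPKM, 9.25% were past 1.2-fold in either direction and 0.148% past 2-fold. The median log2 ratio of the 34 genes, as log2(FPKM + 1) in the column labelled bbx4-1 minus that in wild type, was 0.0017, against 0.028 over all those loci. Of the 34, 18 had a log2 ratio above 0 as deposited (59.1% of all those loci did). After TMM rescaling, a scaling by the trimmed mean of ratios, 13 did, against 50.7% of all those loci. The ratios ran from −0.094 for ATPG to 0.17 for FD1. Summed, the 34 genes took 7.61% of the FPKM of all nuclear loci in wild type against 7.62% in the column labelled bbx4-1.

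**Figure D1:**
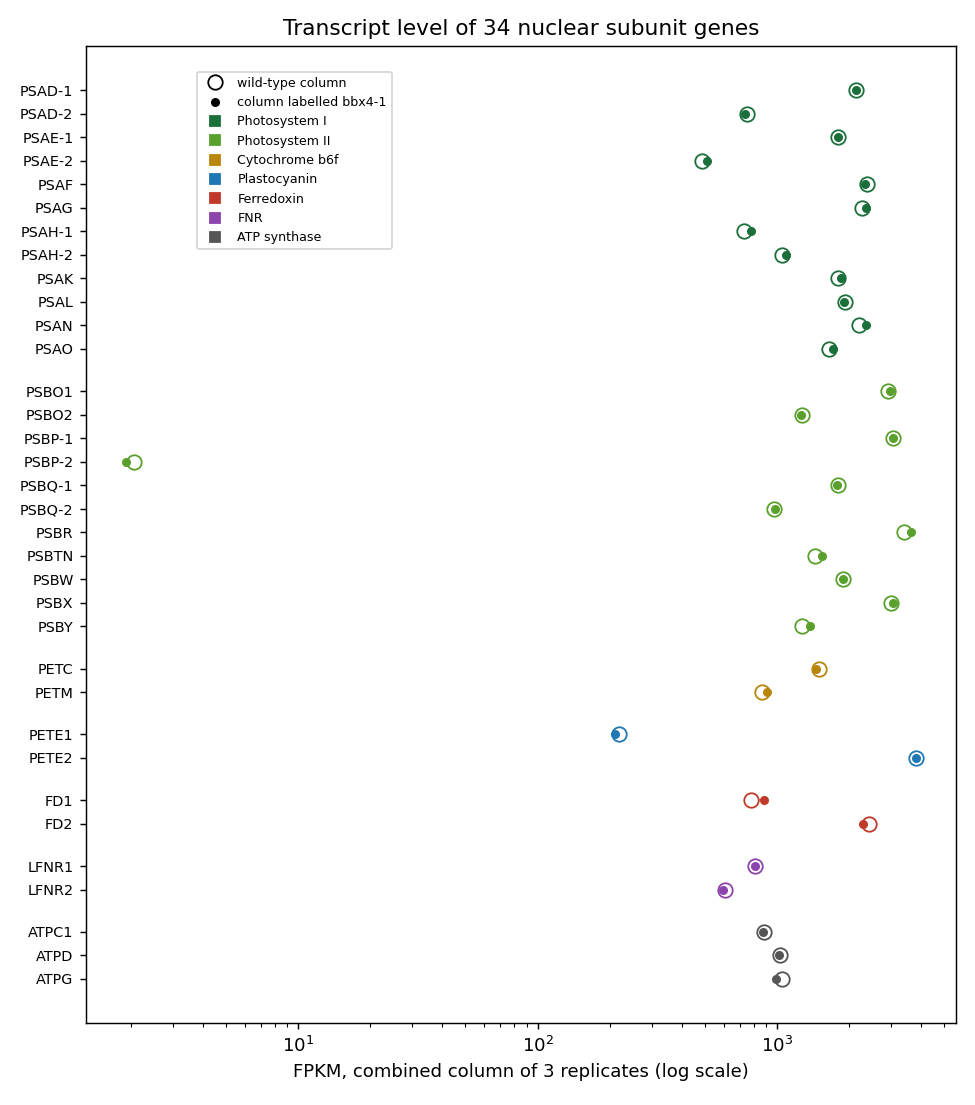
FPKM of each subunit gene on a log axis, in the wild-type column (open circles) and in the column labelled bbx4-1 (filled circles), coloured by complex. Filled and open circles lie nearly on each other, and PSBP-2 at 2.05 and 1.90 FPKM stands far below the other genes.

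These were among the most abundant nuclear transcripts of the seedlings. Of 33323 nuclear loci, the top 100 by FPKM held 28 of the 34 genes in wild type against 28 in the column labelled bbx4-1. At least 1000 FPKM was reached by 23 of them in wild type against 22 in the column labelled bbx4-1, ATPG being at 1056 in the first and 989 in the second. The exception at the low end was PSBP-2. The highest was PETE2, at position 11 among nuclear loci in both columns. The genes are short, with a median coding length of 558 bases against 1047 for all 27444 nuclear coding genes, and 12 of them (35.3%) have a single exon against 20.5% of all. They lie on all the chromosomes, with 14 on chromosome 1, 5 on 2, 3 on 3, 9 on 4 and 3 on 5.

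In 9 cases a pair of genes on the list encodes the same subunit, so that telling them apart depends on where their sequences differ. Over their aligned bases the coding sequences of PSAD-1 and PSAD-2, the most alike, were 88.0% identical, those of FD1 and FD2 80.5% and those of LFNR1 and LFNR2 75.7%. The annotated coding sequence of PSBP-2 has 378 bases against 792 for PSBP-1, so this pair was aligned over 378 bases only. The longest exact stretch common to the coding sequences of a pair was 35 bases, in PSAD. The stretches of PSAD, PSBO, FD and PETE are shown because the shares of these genes are compared further on.
PSAD: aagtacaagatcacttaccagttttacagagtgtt
PSBO: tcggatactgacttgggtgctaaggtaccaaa
FD: tacaaggtcaagttcatcacacc
PETE: gctaaaggagagaagat
They begin at base 433 of the PSAD-1 coding sequence, 925 of PSBO1, 163 of FD1 and 388 of PETE1. No 50-base window of any of the 34 transcripts recurred in the partner gene. Such windows did recur for 8 of the 34 in a neighbouring gene that overlaps on the chromosome, most of all for PSAG (58.8% of windows, with AT1G55673) and PSAH-1 (49.2%, with ROPGEF13). The neighbours that are listed in the tables and overlap a subunit gene had at most 55.3 FPKM. AT1G55673 is not listed, and the labels state neither the use of strand nor the read length, so the values of PSAG and PSAH-1 may hold fragments of these neighbours.

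The 250 bases upstream of the annotated gene starts were searched on both strands for the G-box CACGTG, bound by light-signalling factors such as HY5 and the phytochrome-interacting factors. The I-box GATAAG, known from light-responsive promoters, and the element TGTGNNATG, bound by CONSTANS, a relative of BBX4, were searched in the same way. TATAAA was searched on the gene's own strand. The G-box was present in 7 of 34 windows (20.6%, against 6.49% of 27443 nuclear coding genes), the I-box in 10 (29.4%, against 12.3%), the CONSTANS element in 4 (11.8%, against 3.34%) and TATAAA in 11 (32.4%, against 32.9%). The windows of PSBQ-2 (chr4:2673244-2673493) and PSAF (chr1:11216142-11216391) in TAIR10.1, both on the reverse strand and free of other annotated genes, show a window with a G-box and an I-box and one with an I-box alone among the light-linked motifs. Capitals mark the matches.
PSBQ-2: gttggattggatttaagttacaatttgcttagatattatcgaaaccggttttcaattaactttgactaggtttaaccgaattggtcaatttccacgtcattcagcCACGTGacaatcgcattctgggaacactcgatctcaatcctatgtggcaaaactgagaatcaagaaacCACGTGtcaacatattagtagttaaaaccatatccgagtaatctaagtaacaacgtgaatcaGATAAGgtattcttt
PSAF: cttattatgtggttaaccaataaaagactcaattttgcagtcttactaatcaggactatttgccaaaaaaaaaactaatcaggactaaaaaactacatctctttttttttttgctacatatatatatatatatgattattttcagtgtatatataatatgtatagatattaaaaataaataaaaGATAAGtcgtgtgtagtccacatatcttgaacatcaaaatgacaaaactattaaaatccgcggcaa
The G-boxes of PSBQ-2 begin 145 and 77 bases before the gene start and its I-box 15 bases before it. The I-box of PSAF begins 66 bases before the gene start. The log2 ratios of the 7 genes with a G-box ran from −0.073 to 0.0995 with a median of 0.017, and those of the 27 without one from −0.094 to 0.17 with a median of 0.00042. The lowest with a G-box was PSBP-2, which has few fragments. The medians became −0.012 and −0.029 on TMM rescaling by the shift of 0.029. The median was −0.00076 with an I-box and 0.011 without, and −0.0064 with the CONSTANS element and 0.0036 without. The log2 ratios of the 4 genes with the CONSTANS element lay between −0.034 and 0.073. A match is a description of the letters in a window and does not show binding.

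Photosystem I had a median log2 ratio of 0.052 over its 12 genes (0.023 after TMM rescaling), with 8 above 0 as deposited and 7 after TMM rescaling. PSAE-1, PSAE-2, PSAG, PSAH-1 and PSAH-2 have 50-base windows that recur in a neighbour. Without them the median was 0.0043, and 4 of the genes left were above 0. None was past 1.1-fold, a difference that 30.2% of all loci with mean FPKM of at least 1 reached. PSAD, on the stromal side where ferredoxin docks, is encoded by PSAD-1 at 2142 and 2148 FPKM in wild type and the column labelled bbx4-1, and by PSAD-2 at 754 and 736. PSAE, beside it on the stromal ridge, is encoded by PSAE-1 at 1808 and 1803 FPKM and PSAE-2 at 488 and 513. In both pairs the first gene was the more abundant in each column. PSAF, which helps plastocyanin dock on the lumenal side, stood at 2374 and 2329.8 FPKM, and PSAN, a lumenal subunit also linked to plastocyanin, at 2207 and 2359. PSAF was thus slightly lower and PSAN slightly higher in the column labelled bbx4-1, with log2 ratios of −0.027 (counting SE 0.0055) and 0.096 (SE 0.0061).

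PSAG and PSAK, related membrane subunits that border the light-harvesting antenna of photosystem I, had almost equal log2 ratios of 0.052 each. PSAG was at 2273 FPKM in wild type against 2356 in the column labelled bbx4-1, and PSAK at 1798 and 1864. PSAH, PSAL and PSAO lie on the side where mobile light-harvesting complex II binds during state transitions. PSAH-1 stood at 727 and 779 FPKM, the highest ratio of the complex at 0.0998 (SE 0.0093), and PSAH-2 at 1051 and 1091 FPKM. PSAL was at 1925 and 1912 FPKM and PSAO at 1656 and 1726. Of these, PSAH-1, PSAH-2 and PSAO were higher in the column labelled bbx4-1 and PSAL lower, the last within its counting interval as deposited.

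Photosystem II had a median log2 ratio of 0.017 over 11 genes as deposited, which became −0.012 after TMM rescaling and 0.093 without the genes that have a partner for the same subunit. Above 0 were 7 of the 11 as deposited and 4 of the 11 after TMM rescaling. The extrinsic proteins that shield the manganese cluster of water oxidation barely differed. PSBO1, the main gene of the manganese-stabilising protein, was at 2917 FPKM in wild type against 2962 in the column labelled bbx4-1, and PSBO2 at 1275 and 1268. PSBP-1, which helps retain calcium and chloride, was at 3064 and 3061 FPKM. PSBQ-1 was at 1803 and 1794 FPKM and PSBQ-2 at 973 and 984. These 5 genes had log2 ratios between −0.0083 and 0.022. PSBP-2 was at 2.05 and 1.90 FPKM, from about 99.5 fragments in wild type by estimate, and its log2 ratio of −0.073 had a counting interval from −0.48 to 0.33. It was thus expressed at a level that allows no comparison between the columns.

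The highest ratios of photosystem II belonged to small subunits. PSBY (AT1G67740, chr1:25394031-25395249 of TAIR10.1, reverse strand), a small membrane protein near cytochrome b559, stood at 1278 and 1379.8 FPKM, a log2 ratio of 0.11 (SE 0.0073). PSBTN, a small lumenal subunit, was at 1442 and 1545 FPKM (0.0995, SE 0.0085), and PSBR, linked to binding of the extrinsic proteins, at 3412 and 3640.1 FPKM (0.093, SE 0.0056). PSBX, at 2993 and 3058 FPKM, and PSBW, which helps hold the antenna supercomplex together, at 1899 and 1899.9 FPKM, lay at 0.031 and 0.00042. As deposited, the small subunits thus spread from a difference within the counting interval, in PSBW, to the largest of the complex, in PSBY.

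The electron carriers and ATP synthase had a median log2 ratio of −0.019 over 11 genes (−0.048 after TMM rescaling), with 8 below 0. Below 0 were 7652 of the 18931 loci with mean FPKM of at least 1. Of the other nuclear loci, 182 of 487 averaging at least 200 FPKM were below 0, and 36 of 55 averaging at least 1000. After TMM rescaling 2 of the 11 genes were above 0. PETC, the Rieske iron-sulphur protein of cytochrome b6f, was at 1509 FPKM in wild type against 1460.0 in the column labelled bbx4-1, and PETM, a small subunit of the same complex, at 867 and 910.3. These genes of 1 complex differed in direction, at −0.048 (SE 0.0072) and 0.071 (SE 0.010). Plastocyanin came almost wholly from PETE2 at 3814 and 3822 FPKM, with PETE1 at 218 and 212. The reductase genes LFNR1, at 815 and 812 FPKM, and LFNR2, at 607 and 597, were nearly level.

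Leaf ferredoxin gave the largest difference of the 34 genes, in opposite directions for its genes. FD1 (AT1G10960, chr1:3664187-3665040 of TAIR10.1, forward strand, 1 exon) stood at 784 FPKM in wild type against 885 in the column labelled bbx4-1, which is 1.13-fold or 0.17 on the log2 scale (counting SE 0.011). It lay between 0.145 and 0.175 under the pseudocounts and rescalings tried, and was the only one of the 34 past 1.1-fold (2.94%, against 30.2% of all loci with mean FPKM of at least 1). FD2 (AT1G60950, chr1:22444307-22445291, forward strand, 1 exon), the main leaf ferredoxin gene, stood at 2429.9 and 2300.5 FPKM, or −0.079 (SE 0.0060). FD1 overlaps TMN1 (AT1G10950), on the same strand, by 78 bases, and TMN1 was at 44.9 and 47.0 FPKM. The sum of both ferredoxin genes was 3214 and 3185 FPKM, a log2 ratio of −0.013.

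The nuclear subunits of ATP synthase were all slightly lower in the column labelled bbx4-1, as deposited and after each rescaling. ATPC1, the rotating gamma subunit whose disulphide is reduced in the light, was at 886 FPKM in wild type against 874 in the column labelled bbx4-1. ATPD, the delta subunit on top of the catalytic head, was at 1029.9 and 1022 FPKM, within its counting interval as deposited. ATPG (AT4G32260, chr4:15573553-15574737, reverse strand), which encodes a peripheral stalk subunit of the membrane part, was at 1056 and 989 FPKM. Its log2 ratio of −0.094 (SE 0.0086) was the lowest of the 34 genes.

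**Figure D2:**
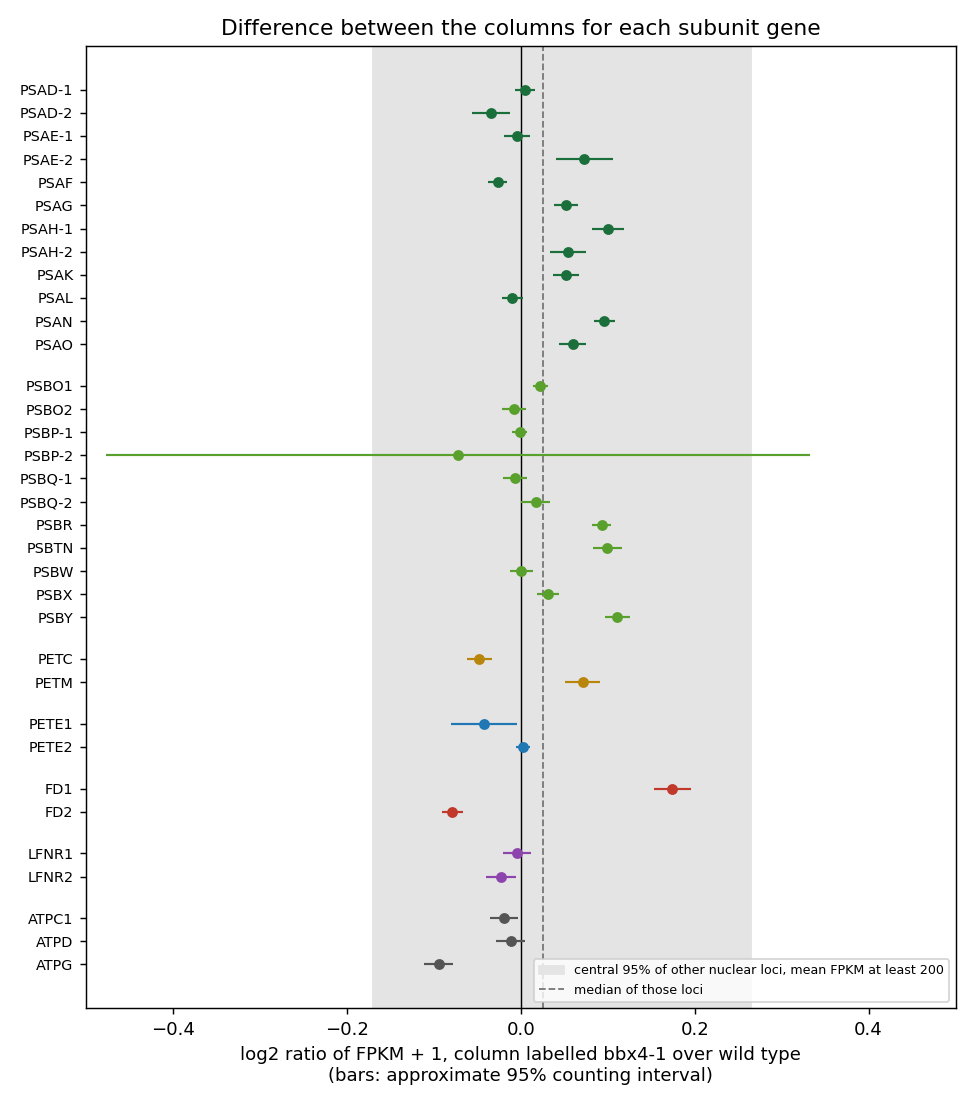
Log2 ratio of FPKM + 1, the column labelled bbx4-1 over wild type, for each subunit gene, with bars for the approximate 95% counting interval. Grey marks the central 95% (−0.17 to 0.26) of the other 487 nuclear loci with mean FPKM of at least 200, and every point lies within it.

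Each gene but PSBP-2 rested on at least 10991 fragments by estimate. By more than the 95% counting interval, 15 of the 34 genes were higher in the column labelled bbx4-1 and 8 lower, and the other 11 lay within it. Among 18741 loci of known length that averaged at least 1 FPKM it was passed by 21.1% upward and 10.3% downward. Among 487 other nuclear loci averaging 200 FPKM or more, a limit that 33 of the 34 genes also pass, 49.5% were higher and 26.9% lower by it, and 62.6% had a ratio above 0. It therefore does not set the 34 genes apart, and how far the differences exceed the variation between seedlings is unknown. These counts are for the values as deposited and depend on the scaling. After TMM rescaling, the 11 genes that had lain within it all lay below 0 by more than their counting intervals, except PSBP-2. Among them were PSBW (−0.029), PSAL (−0.039) and ATPD (−0.041). PSBO1, PSBQ-2 and PSBX, which were higher by it as deposited, then lay within it. More of the 34 genes were thus lower than higher by it after TMM rescaling.

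The other abundant loci offer a scale for the size of the differences. Of those 487, 17.9% were past 1.1-fold and 3.9% past 1.2-fold, against 1 and 0 of the 33 subunit genes. Their central 95% ran from −0.17 to 0.26, and that of the 33 from −0.082 to 0.12. Among the 55 other nuclear loci averaging 1000 FPKM or more, 14.5% were past 1.1-fold, against 0 of 23 subunit genes at that level. Those 55 had a median of −0.030 and the 23 one of 0.0029, which became −0.059 and −0.026 after TMM rescaling. These limits on FPKM were chosen after the values were seen, and no test was made of the difference in spread.

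**Figure D3:**
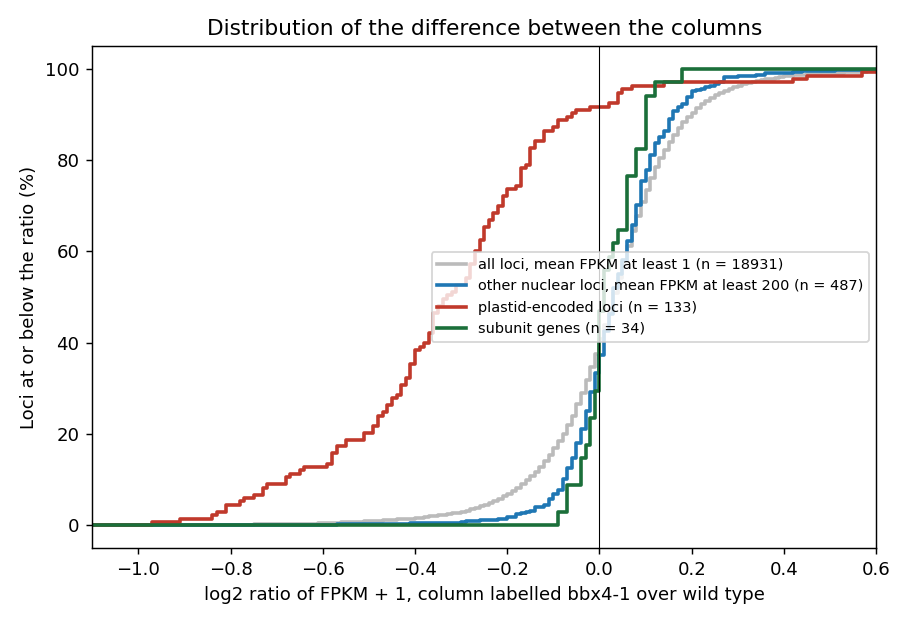
Share of loci (%) at or below each log2 ratio of FPKM + 1, the column labelled bbx4-1 over wild type. The curve of the 34 subunit genes climbs within −0.094 to 0.17, that of the 487 other abundant nuclear loci over a wider range, and that of the 133 plastid-encoded loci lies to the left with a median of −0.34.

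Summing the genes for each subunit gave a narrower range of levels within photosystem I. Its 12 genes ran over a 4.86-fold range in wild type, whereas its 9 subunits ran from 1656 FPKM for PSAO to 2896 for PSAD, a 1.75-fold range. In the column labelled bbx4-1 the range over subunits was 1.67-fold. The summed values of PSAE, 2296 FPKM in wild type, and PSAH, 1778, lay among those of subunits with a single gene. That of PSAD lay above all of these, the highest being PSAF at 2374. The genes of the PSAE and PSAH pairs with the lower FPKM, PSAE-2 and PSAH-1, were the lowest of the complex together with PSAD-2.

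Subunits of photosystem II were less even, with a 3.28-fold range in wild type and 3.07-fold in the column labelled bbx4-1. PSBO had the highest sum, 4192 and 4230.1 FPKM, and PSBY the lowest, 1278 and 1379.8. The 3 subunits of ATP synthase lay within 1.19-fold of each other in wild type and 1.17-fold in the column labelled bbx4-1. The highest of them, ATPG at 1056 FPKM in wild type, was below the lowest photosystem I subunit, PSAO at 1656. Plastocyanin, at 4032 and 4033 FPKM in sum, and ferredoxin, at 3214 and 3185, were above every photosystem I subunit in both columns. The levels between genes rest on the authors' gene lengths, which are not known here.

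**Figure D4:**
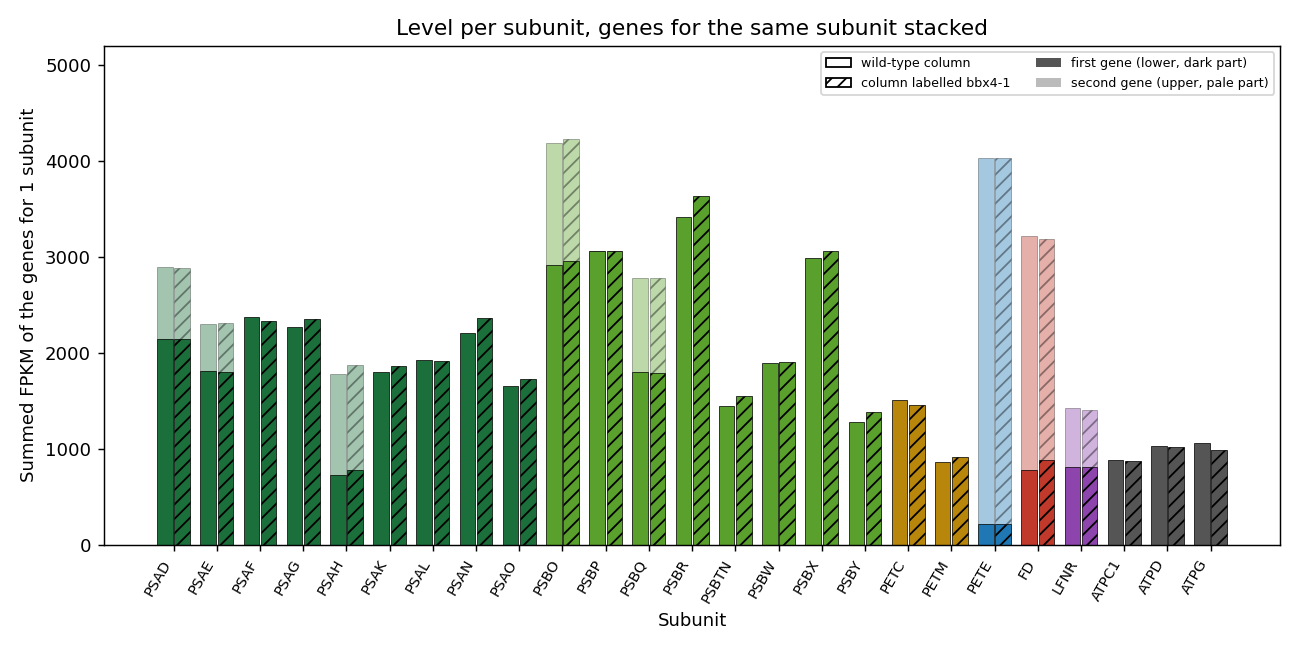
Summed FPKM of the genes for each subunit, for wild type (plain bars) and the column labelled bbx4-1 (hatched bars), with the first gene dark and the second pale on top. Photosystem I subunits stand between 1656 and 2896 FPKM in wild type, and the 3 ATP synthase subunits between 886 and 1056.

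The split of a subunit between its genes was nearly the same in both columns, except in ferredoxin. FD1 made up 24.4% of ferredoxin FPKM in wild type (95% counting interval 24.2 to 24.6) and 27.8% in the column labelled bbx4-1 (27.5 to 28.0). That is 3.38 percentage points more. In the 8 other pairs the share of the first gene moved by between −0.91 points for PSAE-1 and 0.77 points for PSAH-1. PSBO1 held 69.6% and 70.0% of PSBO FPKM, PSAD-1 74.0% and 74.5% of PSAD, and PSBQ-1 65.0% and 64.6% of PSBQ. PETE1 held 5.41% and 5.25% of plastocyanin, so that PETE2 was 17.5-fold and 18.0-fold above it. LFNR1 held 57.3% and 57.6% of the reductase, and PSBP-1 99.93% and 99.94% of PSBP. PSAH-1, at 40.9% and 41.7%, FD1 and PETE1 were the first genes that were not the more abundant of their pair by FPKM. By approximate fragments PSAH-1 was the more abundant, at 56.2% and 57.0% of PSAH. The order of that pair thus depends on the gene lengths, here taken as 1300 bases for PSAH-1 and 702 for PSAH-2.

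Genes that act around the complexes gave a setting for these values. The 18 antenna genes of both photosystems had a median log2 ratio of −0.031, with 6 above 0, and took 6.34% of nuclear FPKM in wild type against 6.20% in the column labelled bbx4-1. Their extremes were LHCB1.4 at −0.21 and LHCB4.3 at 0.14. LHCB1.4 is one of several LHCB1 copies, whose likeness was not measured here, so the ratios of these copies are uncertain. Of 17 assembly factors whose names matched the annotation, 8 were above 0 with a median of −0.0070. CGL160, needed for ATP synthase assembly, was the highest at 0.14 (85.5 to 94.6 FPKM) and PSA2, needed for photosystem I, the lowest at −0.073 (117.8 to 111.9 FPKM). Neither list held a gene past 1.2-fold.

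Among 14 measured relatives of the subunits, the median was −0.025, and 1 was past 1.2-fold. That was RFNR1, a ferredoxin-NADP reductase of roots, at 19.1 FPKM in wild type against 24.1 in the column labelled bbx4-1 (0.32, SE 0.046). The lowest was the cytochrome c6-like gene CYTC6A, at 21.1 and 17.9 FPKM (−0.23, SE 0.076). PSB27, an assembly protein of photosystem II, was the most abundant of them at 531 and 574 FPKM. ATPC2, the second gamma subunit gene, was at 5.74 and 4.87 FPKM beside ATPC1 at 886 and 874. FD4, another ferredoxin gene, was listed at 0 in wild type and at 0.09 in the column labelled bbx4-1.

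The plastid-encoded transcripts, which include the core subunits of the same complexes, had lower ratios than the nuclear genes, with no test of that difference. Their 133 loci had a median log2 ratio of −0.34, with 11 above 0 (8.27%), whereas the 34 nuclear genes had 18 above 0 as deposited. Past 1.2-fold lower in the column labelled bbx4-1 were 83 of the 133 loci (62.4%), against 0 of the 34. Plastid loci made up 9.63% of the summed FPKM of wild type against 8.75% of that in the column labelled bbx4-1. After rescaling to equal sums over nuclear loci the median of the 34 genes was −0.017. Plastid transcripts are mostly not polyadenylated and the libraries were made after poly(A) enrichment. The part of that step in the plastid values was not tested. In whole seedlings, fewer green cells and less RNA per cell cannot be told apart.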

How the data were processed

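The authors deposited 2 tables of FPKM, 1 per genotype, in which 3 replicates are combined, per the series' design text. Per the submitters' processing notes, HISAT2 2.1.0, edgeR 3.0.8 and the build TAIR10 were used, with no role given. The counting tool, gene lengths, strand use and filters are not stated in the labels. Labels give no separate plants per replicate beyond calling them biological replicates.

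FPKM were compared as log2(FPKM + 1), which understates the change of low genes. Loci averaging 1 FPKM or more were kept (18931), and all 34 genes passed. With 1 column per genotype there was no test. The product of FPKM and length over transfer RNA genes of at most 75 bp with 1 fragment (20 and 18 genes) gave the depth, and fragments per gene followed from the exon length in TAIR10.1. Counting intervals (95%) are ± 1.96 SE of the log ratio, and treat PCR copies as separate fragments. Intervals of shares come from the fragments of both genes on the log odds. The largest log2 SE among the 33 genes above 200 FPKM was 0.019. The code was tested on simulated data.

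Symbols, coordinates and sequences came from RefSeq TAIR10.1, and the files hold no coordinates. Of 103 list entries, 69 matched a symbol there. The 31 plastid entries did not and were replaced by all plastid loci, and PYG7, PSA3 and BFA1 were left out. Root markers had a median of 0.057 over 6 measured genes, seed markers 0.00032 over 2 and green markers −0.037 over 4, and no flower marker reached mean FPKM 1. All 34 genes are named, with the highest and lowest measured gene of each other list, and others only for their role. The members and lists were chosen with earlier results of these data known. Values were computed with Python 3.11.15, NumPy 2.4.6 and pandas 2.3.3.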

Additional observations from a re-analysis of the deposited data

How the results depend on the processing

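No paired analysis was possible because the replicates of each genotype are combined in 1 column, and for the same reason no replicate could be left out in turn. Pseudocounts of 0.1 and 5 and the filters on FPKM moved no median by more than the typical counting interval of 1 gene, and the counts past 1.2-fold and 2-fold were 0 under every setting tried. Rescaling moved the medians down. That of all 34 genes went from 0.0017 to −0.017 (equal nuclear sums), −0.0274 (TMM) and −0.0271 (median of nuclear loci at 0). Photosystem I went to 0.033, 0.0228 and 0.0231, photosystem II to −0.0021, −0.0121 and −0.0119, and the carriers with ATP synthase to −0.038, −0.0484 and −0.0481, in the same order. The genes that turned from above to below 0 under TMM were PETE2, PSBW, PSAD-1, PSBQ-2 and PSBO1. Without the genes that have a partner for the same subunit, the median was 0.041 for all and 0.093 for photosystem II, and 0 genes were past 1.1-fold, since FD1 was left out. Without the 8 genes whose 50-base windows recur in a neighbour, an alternative added after seeing the data, photosystem I had a median of 0.0043, and again 0 genes were past 1.1-fold, since FD1 is among the 8. Shares by approximate fragments in place of FPKM moved no change between columns by more than its counting interval, with FD1 at 3.15 points. PSBP-2 is the gene of the 34 with the fewest fragments and the widest counting interval.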
